A study of Mus musculus with 4 samples.

Results

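Hedgehog signalling in the embryonic mouse nose was followed through 9 genes of the pathway: the ligand Shh, the receptor Ptch1, the co-receptors Boc and Cdon, the transducer Smo, the transcription factors Gli1, Gli2 and Gli3, and the ligand-binding inhibitor Hhip. They were taken by gene symbol from the 32285 genes of the deposited matrices, and all 9 were present. Their transcripts were counted in cells that held 500 or more detected genes and no more than 10% mitochondrial UMIs.

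Whole noses of embryonic day 14.5 mice were dissociated with enzymes, frozen and profiled with 10x Genomics 3′ single-cell RNA sequencing, in which each captured transcript carries a random tag, the UMI, and only the 3′ end of the transcript is read. The 4 libraries analysed here are 2 controls and 2 mutants by their titles. The mutants carry Tg(Sox10-cre)1Wdr with floxed Yap and Taz. The series design gives their alleles as Sox10cre, yap flox/WT and taz flox/flox. The controls are labelled wild-type C57Bl/6J in the sample labels and yap flox/flox;taz flox/flox without Cre in the series design, and the disagreement remains. The transgene drives Cre from the promoter of Sox10, a gene of neural crest cells and their glial descendants. The protocol speaks of 2 noses per group without saying which animal gave which library, so the p-values below measure the spread between these libraries.

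Libraries are listed throughout as control 1, control 2, mutant 1, mutant 2. They held 4075, 2474, 2995 and 4195 retained cells with 35331450, 19767873, 29121739 and 26874057 UMIs. Between 4 and 8 barcodes were shared by any pair of libraries. Cells were assigned to types from marker genes, none of them one of the 9 genes. Of 13739 cells, 11064 were assigned, and 9 types reached 20 cells in each library and were tested: mesenchyme-like (7852 cells), surface epithelium-like (749), osteoblast-like (526), chondrocyte-like (483), macrophage-like (269), mural-like (234), endothelial-like (220), glia-like (123) and a remainder of 324 epithelial cells that met no other type. This remainder was led by Gstm1 and Olfm5 and is called Gstm1/Olfm5 epithelium here. Among the 10 genes leading each type, from 3 (mesenchyme- and mural-like) to 8 (surface epithelium-like) were its own markers in the 8 named types. Yap1 was at 65.0, 65.2, 56.4 and 56.0 CPM (UMIs scaled to a common depth) and Wwtr1, which encodes Taz, at 118, 145, 123 and 132 CPM over all cells. A 3′ read can come from a transcript that lacks the deleted exons, so these levels do not check the deletion.

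Hedgehog ligands are secreted proteins that bind Ptch1 on receiving cells, with Boc, Cdon and Gas1 as co-receptors. Binding releases Smo from inhibition by Ptch1, and Smo acting through the primary cilium turns Gli2 and Gli3 from repressors towards activators. Ptch1, Gli1 and Hhip are themselves induced by the pathway, so their transcripts are widely used to mark responding cells, and in the developing face Shh from epithelium patterns the neural crest mesenchyme beneath it.

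On GRCm38, the build of the mm10 reference, GENCODE M21 places Shh (ENSMUSG00000002633) on chromosome 5 from 28456815 to 28467256, Ptch1 (ENSMUSG00000021466) on chromosome 13 from 63508328 to 63573598 and Smo (ENSMUSG00000001761) on chromosome 6 from 29735503 to 29761365. Gli1 (ENSMUSG00000025407) lies on chromosome 10 from 127329882 to 127341974, Gli2 (ENSMUSG00000048402) on chromosome 1 from 118834132 to 119053619 and Gli3 (ENSMUSG00000021318) on chromosome 13 from 15463235 to 15730026. Hhip (ENSMUSG00000064325) lies on chromosome 8 from 79965851 to 80058006, Boc (ENSMUSG00000022687) on chromosome 16 from 44485049 to 44558897 and Cdon (ENSMUSG00000038119) on chromosome 9 from 35421128 to 35507652.

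Ptch1 and Hhip are the response genes whose levels moved together in several groups of mesenchyme-like cells below, and their RefSeq promoters are therefore shown. RefSeq promoters (GRCm38.p6, 250 bases before and 50 after the annotated start) were matched for 6 of the 9 genes: Ptch1, Hhip, Smo, Gli2, Gli3 and Cdon. The Ptch1 window is chr13:63565686-63565985 and the Hhip window chr8:80057959-80058258, both on the minus strand. The capital marks the first transcribed base.
Ptch1: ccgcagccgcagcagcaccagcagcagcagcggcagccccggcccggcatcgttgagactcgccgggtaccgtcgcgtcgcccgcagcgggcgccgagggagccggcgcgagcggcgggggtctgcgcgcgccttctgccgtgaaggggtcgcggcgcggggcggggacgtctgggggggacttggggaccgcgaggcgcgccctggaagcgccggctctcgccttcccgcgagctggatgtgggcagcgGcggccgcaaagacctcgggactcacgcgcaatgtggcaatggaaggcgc
Hhip: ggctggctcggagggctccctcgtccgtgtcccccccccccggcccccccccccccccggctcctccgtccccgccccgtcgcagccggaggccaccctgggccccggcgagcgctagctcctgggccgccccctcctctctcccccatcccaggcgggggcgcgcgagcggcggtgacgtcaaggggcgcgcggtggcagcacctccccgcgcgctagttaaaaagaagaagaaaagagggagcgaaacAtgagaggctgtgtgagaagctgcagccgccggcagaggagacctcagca
Both windows were rich in G and C, at 76.3% for Ptch1 and 73.7% for Hhip, against a median of 52.7% over all RefSeq promoters of the table. The core letters bound by Gli proteins, GACCACCCA, were searched on both strands. No matched promoter of the 9 genes held them, exactly or with 1 mismatch. The Ptch1, Gli3 and Cdon windows lie inside the annotated genes rather than at their outermost ends. Ptch1, on the minus strand, reaches to 63573598, and Cdon begins at 35421128 while its window begins at 35451826. The search therefore says nothing about a promoter at the outermost start of these genes. Of 32851 promoters, 83 (0.253%) held an exact match and 2214 (6.74%) a match with up to 1 mismatch.

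Shh transcripts were rare and lay mostly in epithelium. Over all retained cells, 94 Shh UMIs were counted in 45 cells, and 79 of these UMIs lay in 36 epithelial cells. Surface epithelium-like cells held 65 of the UMIs in 32 cells, Gstm1/Olfm5 epithelium 14 UMIs in 4 cells, mesenchyme-like cells 4 UMIs and cells of no assigned type 11. None was seen in osteoblast-, chondrocyte-, endothelial-, mural-, macrophage- or glia-like cells. With at least 2 Shh UMIs, 14 of 17 cells were epithelial. Shh in surface epithelium-like cells was at 4.23, 1.59, 8.54 and 11.6 CPM, and in mesenchyme-like cells at 0.0621, 0, 0.0621 and 0.154 CPM. Every library was higher in the epithelium, and the pooled level was 92.3 times that in mesenchyme-like cells, with an exact 95% counting interval from 34.4 to 349. The 43.8 CPM of Gstm1/Olfm5 epithelium in control 2 came from 3 cells of the 21 there, and the other libraries held 0, 0.541 and 0 CPM.

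The share of epithelial cells with a Shh UMI was 2.85% (11 of 386), 4.10% (5 of 122), 2.13% (7 of 329) and 3.70% (13 of 351) by library. These shares overlapped between the groups. As a background, 0 of 269 macrophage-like cells held a Shh UMI, which allows a share of up to 1.12% of cells with a UMI, at a median depth of 8968 UMIs against 9961 in surface epithelium-like cells. Intervals and limits of this kind cover counting error only.

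The other 2 ligands lay in other cells. Ihh, the ligand of growing bone and cartilage, gave 102 UMIs, of which 78 (76.5%) lay in 49 osteoblast-like cells. Its level there was 10.6, 24.6, 14.4 and 16.3 CPM, and the pooled level was 136 times that in mesenchyme-like cells (59.9 to 383) and 18.1 times that in chondrocyte-like cells (5.96 to 89.5). Dhh, the ligand of Schwann cells and vessels, gave 48 UMIs, 31 of them in 24 glia-like cells. It stood at 21.5, 19.8, 16.1 and 75.6 CPM in glia-like cells and at 0.868, 3.83, 1.04 and 3.57 CPM in endothelial-like cells, a pooled ratio of 12.3 (5.51 to 30.9). Mutant 2 held the highest level in glia-like cells, and the genotypes overlapped.

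**Figure D1:**
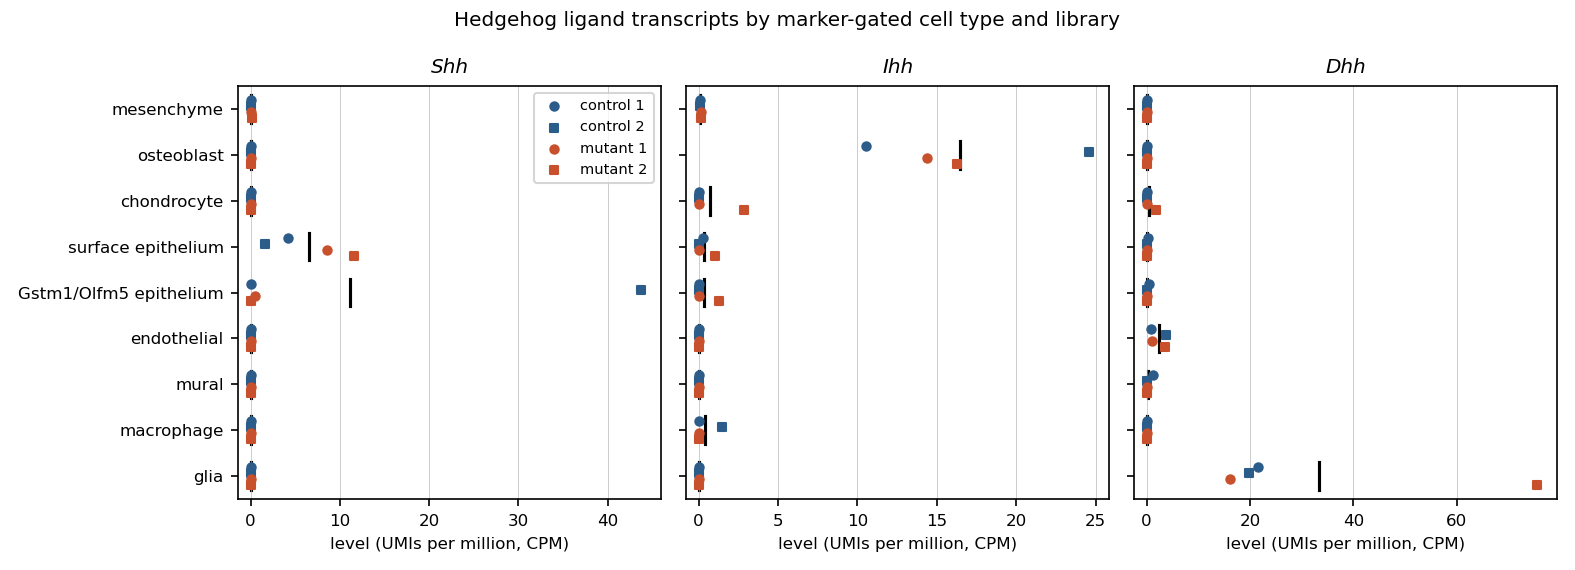
Levels of the 3 Hedgehog ligand genes in CPM (horizontal axis) in 9 marker-assigned cell types (vertical axis), 1 point per library and a bar at the mean of the 4 libraries. Shh lies in the epithelia, where its highest point is the 43.8 CPM of control 2, Ihh in osteoblast-like cells (10.6 to 24.6 CPM) and Dhh in glia-like cells (16.1 to 75.6 CPM).

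The epithelial cells that held Shh were compared with the other 1152 epithelial cells, as a description with no test, since cells are not replicates. Pooled over libraries, Ptch1 was at 251 CPM in the 36 Shh-positive cells and 58.7 CPM in the others, and it was higher in 3 of the 4 libraries. By library, Ptch1 was at 237, 32.4, 329 and 275 CPM with Shh and at 60.0, 51.2, 65.6 and 50.5 CPM without. Control 2, which contributed 5 of the cells, was the exception. Gli1 was at 21.5 against 5.78 CPM and higher in 3 libraries. Gas1, which encodes a membrane-anchored co-receptor, was at 17.2 against 153 CPM and lower in all 4 libraries. Cdon was at 38.6 against 62.2 CPM. The transcription factor genes Foxe1 (66.5 against 12.6 CPM) and Lef1 (193 against 48.4 CPM) were higher in Shh-positive cells of all 4 libraries. Bpifa1, a secreted product of nasal epithelium, was at 0 against 654 CPM. Only 56 epithelial cells held 2 or more Bpifa1 UMIs and 1128 held 0, so its absence from 36 cells does not show exclusion. Among genes picked after their values were seen, Sim2 (70.8 against 2.60 CPM), Prox1 (139 against 8.85 CPM) and Lgr5 (161 against 25.8 CPM) were also higher in all 4. Median depth was 9320.5 UMIs in the Shh-positive cells and 10731 in the others.

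All epithelial cells, pooled over their types, were also split by a transcription factor or keratin, at 2 or more UMIs against 0. Each split was fitted with edgeR over all genes with the library as a term. Over 9 such splits, 19 of 64 tests of the 9 genes (29.7%) passed an adjusted p of 0.05, 13 of them higher and 6 lower, against 17.4% of all tests (8.53% higher, 8.87% lower). Without mutant replicate 1 the number was 12, and over all single-library omissions it ran from 12 to 25. The splits share cells, so their counts are not independent.

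Epithelial response genes were higher in cells with the basal keratin Krt5. Krt5 is also a marker used to assign surface epithelium-like cells, so this split partly repeats the difference between epithelial types. Ptch1 averaged 88.2 CPM in surface epithelium-like cells and 24.6 CPM in Gstm1/Olfm5 epithelium, and Gli1 10.4 and 0.842 CPM. Differences within a single epithelial type were not tested. In Krt5-positive cells (625 against 473 cells, 27.6% of genes called), Ptch1 stood at 94.4, 57.7, 117 and 88.6 CPM, against 30.3, 30.0, 25.1 and 38.4 CPM in Krt5-negative cells. The ranges did not touch, and Ptch1 was 1.73 ± 0.18 higher on the log2 scale (edgeR adjusted p 6.71e-05). Gli2 was 0.90 ± 0.16 higher (adjusted p 0.00157) and Gli1 3.39 ± 0.46 higher. Of the Gli1 UMIs, 107 lay in surface epithelium-like cells and 1 in Gstm1/Olfm5 epithelium. Gli1 differences between epithelial cells thus rest on few counts outside the former type, and the Gli1 test is not given as support. Cells with Sostdc1, which encodes a secreted inhibitor of BMP and Wnt signalling, showed Ptch1 higher by 1.75, Gli1 by 2.75 and Gli2 by 0.96 (21.4% of genes called). Ptch1 was lower in Krt7-positive cells (log2 difference -1.44, 9.03% of genes called) and Sox2-positive cells (-0.93, 25.6%). Krt7 and Sox2 are also markers used to assign suprabasal and olfactory epithelium-like cells, so these splits may partly repeat differences between epithelial types. The Sox2 call was lost without mutant replicate 1 (adjusted p 0.0905). Cells positive for either gene were deeper in each library, in control 1 at a median of 15194 against 11803 UMIs for Krt7 and 18704 against 10739 for Sox2. The part of depth was not tested.

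Among receiving cells, Ptch1 was highest in osteoblast-like cells, at 215, 194, 251 and 194 CPM. Mesenchyme-like cells followed at 128, 124, 163 and 137 CPM and chondrocyte-like cells at 103, 107, 139 and 101 CPM. The osteoblast-like range lay above both, while mesenchyme- and chondrocyte-like ranges overlapped. Surface epithelium-like cells held 95.1, 57.4, 116 and 84.8 CPM, which overlapped with the range of chondrocyte-like cells above it and of endothelial-like cells (mean 63.4 CPM) below it. Means were lower still in mural-like (59.1), glia-like (46.5), Gstm1/Olfm5 epithelium (24.6) and macrophage-like cells (23.0 CPM), each overlapping its neighbour. Levels of different genes are not compared here, and each CPM is read against the same gene in other cells.

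Types were set against mesenchyme-like cells in 1 edgeR fit with the library as a term. Of the 9 genes, 8 passed the filter on low counts and Shh did not. A gene could pass it through any type, so a lower call where it held few UMIs is not given as support. Gli1 held 0 UMIs in glia- and macrophage-like cells and 1 in Gstm1/Olfm5 epithelium. Hhip held 0 in glia-like, 1 in macrophage-like, 1 in Gstm1/Olfm5, 13 in surface epithelium-like and 21 in chondrocyte-like cells. Ptch1 was 0.72 ± 0.17 higher on the log2 scale in osteoblast-like cells (SE, n = 4 libraries, adjusted p 0.00107). In surface epithelium-like cells Ptch1 was lower by 0.63 (log2 difference -0.63 ± 0.17, adjusted p 0.00217). In surface epithelium-like cells 7 of the 8 genes were called, all of them lower, where 53.8% of all genes were called and 28.3% were lower. The median of the 8 log2 differences was -0.79, against -0.01 over all genes. Osteoblast-like cells had 1 gene higher and 3 lower (30.4% of all genes called, 14.1% higher and 16.3% lower), and chondrocyte-like cells 3 lower (16.9%, 8.46% lower). Without control replicate 1 or without mutant replicate 2, Hhip alone was called in chondrocyte-like cells. All 8 were lower in glia-like (26.9% of all genes called, 15% lower), endothelial-like (50.2%, 27.4% lower), macrophage-like (63.6%, 34.6% lower) and Gstm1/Olfm5 epithelial cells (55.8%, 28.6% lower), and 5 in mural-like cells (18%, 8.82% lower). Some of these calls were lost when 1 library was left out: Smo in glia-like cells without control replicate 1 (adjusted p 0.0530) or mutant replicate 2 (0.0599), Gli3 in osteoblast-like cells without mutant replicate 2 (0.0751), and Gli2 in surface epithelium-like cells without control replicate 2 (0.0729) or mutant replicate 2 (0.0598).

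The co-receptors differed in their distribution. Boc was highest in chondrocyte-like cells, at 153, 155, 202 and 141 CPM, followed by mesenchyme-like cells at 119.8, 117, 127 and 140.1 CPM. These ranges did not touch, yet the log2 difference of 0.33 did not pass (edgeR adjusted p 0.182); it passed when cells needed 1 marker more for a type (0.0463). Cdon was highest in mesenchyme-like cells, at 130.3, 169, 122 and 139 CPM, and chondrocyte-like cells followed at 65.3, 121, 122 and 104 CPM, with both mutant 1 values nearly the same. Its difference in chondrocyte-like cells was -0.49 with an adjusted p of 0.0265, which was lost with the stricter assignment (0.112), without control replicate 1 (0.276), without control replicate 2 (0.0683) and without mutant replicate 2 (0.105). Osteoblast-like cells held little of either, with Cdon at 23.7, 19.99, 24.0 and 21.9 CPM, a difference from mesenchyme-like cells of -2.48 ± 0.19 (adjusted p 9.48e-13), and Boc at a mean of 39.9 CPM, a difference of -1.52 (4.78e-08). The type with the most Ptch1 thus held Cdon below every library of mesenchyme- and chondrocyte-like cells. Gas1 was highest in mesenchyme-like cells, at 301, 374, 268 and 348 CPM.

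Smo, the transducer, varied least between the 9 types by the ratio of its highest to its lowest mean. It was at 66.0, 62.6, 81.1 and 86.1 CPM in mesenchyme-like cells, at 58.6, 69.3, 84.7 and 83.6 CPM in chondrocyte-like cells and at 58.0, 60.5, 57.2 and 56.5 CPM in surface epithelium-like cells. Neighbours in the order of its 9 means, from chondrocyte-like (74.1) to macrophage-like cells (24.0 CPM), all overlapped. Its difference in surface epithelium-like cells was -0.33 with an edgeR adjusted p of 0.0154, which was lost without control replicate 1 (0.0810), without mutant replicate 1 (0.167) and without mutant replicate 2 (0.229).

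The Gli factors split into broad and narrow patterns. Gli3, which encodes the main repressor form, was highest in mesenchyme-like cells, at 186, 193, 216 and 193 CPM, above all libraries of the next type, chondrocyte-like cells (mean 145 CPM). Glia-like cells held Gli3 at 110.1, 147, 126 and 138 CPM but Gli2 at 7.18, 3.97, 8.04 and 0 CPM. Gli2, the main activator, had its highest mean in mesenchyme-like cells (101 ± 12.7 CPM, SD, n = 4), with chondrocyte-like (86.8), osteoblast-like (80.7), surface epithelium-like (70.0) and mural-like cells (66.8 CPM) each overlapping its neighbour. Gli1, the response gene, was at 12.7, 11.8, 13.2 and 12.6 CPM in mesenchyme-like, 9.67, 16.9, 13.4 and 17.7 CPM in osteoblast-like and 11.7, 11.9, 13.4 and 4.54 CPM in surface epithelium-like cells. These ranges overlapped, and the Gli1 difference between surface epithelium- and mesenchyme-like cells was -0.25 with an adjusted p of 0.441. Gli1 was not seen in glia-like cells (0 of 123 cells, which allows a share of up to 2.44% of cells with a UMI) or in macrophage-like cells (0 of 269). This limits cells with a captured UMI, not cells expressing the gene, and 631 of 7852 mesenchyme-like cells held one. Mesenchyme-like cells were at least 5.01-fold higher than the former and at least 11.2-fold higher than the latter, against a floor of 3 counts over the group.

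Hhip, which encodes a ligand-binding inhibitor, was at 29.4, 24.8, 38.6 and 30.2 CPM in mesenchyme-like cells and at 28.1, 26.1, 24.0 and 17.0 CPM in osteoblast-like cells. Surface epithelium-like cells held 0.995, 1.59, 0.743 and 2.52 CPM, from 13 UMIs in all. The epithelium thus carried Ptch1 and Gli1 with little Hhip, and its Hhip level was lower than that of mesenchyme-like cells in every library. The pooled ratio was 24.0 (counting interval 14.0 to 45.1), and the log2 difference was -4.57 ± 0.39. Hhip passed the filter on low counts through other types, so its test in these cells is not given as support. Hhip was also lower in chondrocyte-like cells, at 6.68, 1.44, 7.70 and 5.70 CPM from 21 UMIs. The log2 difference was -2.47 ± 0.38, with the same limit on its test. In osteoblast-like cells the Hhip difference was -0.30 with an edgeR adjusted p of 0.431. It was -0.82 with 0.0327 when cells needed 1 marker more for a type. No Hhip UMI was seen in 123 glia-like cells, and mesenchyme-like cells were at least 12.4-fold higher.

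**Figure D2:**
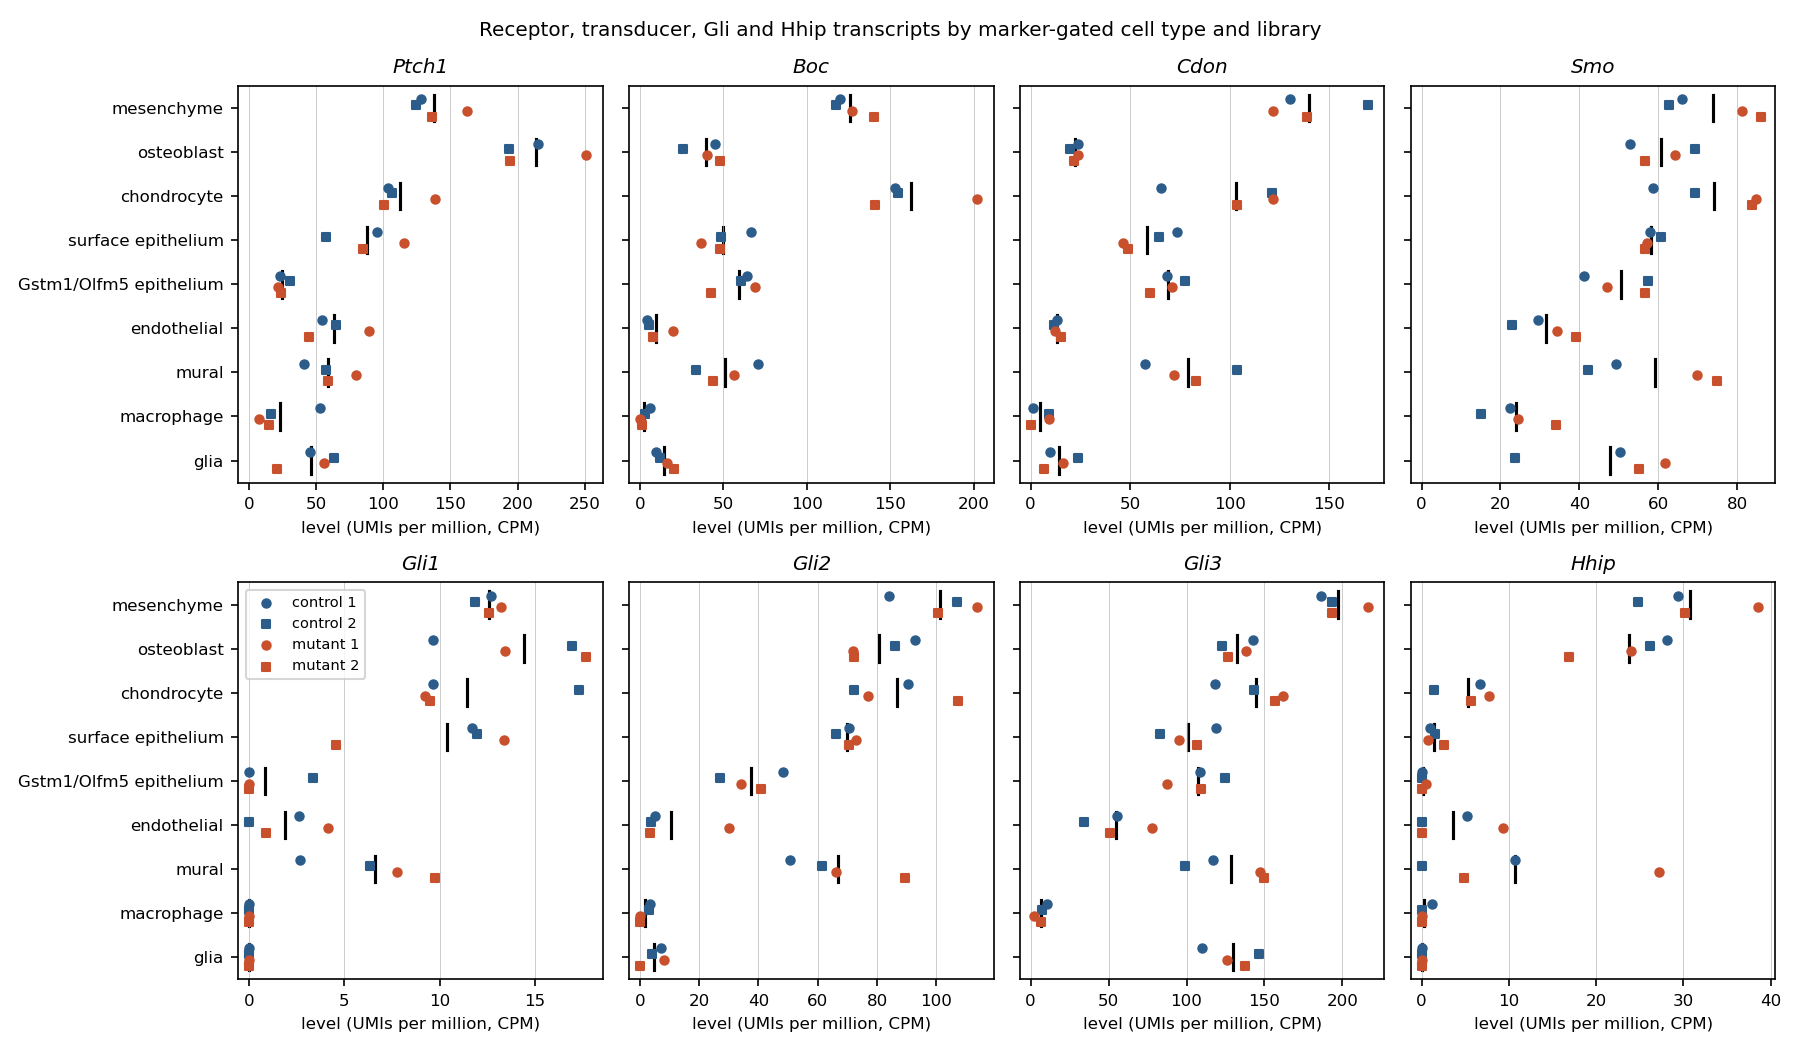
Levels in CPM (horizontal axis) of the other 8 genes in 9 marker-assigned cell types (vertical axis), 1 point per library and a bar at the mean of the 4 libraries. Ptch1 peaks in osteoblast-like cells (mean 214 CPM), Boc in chondrocyte-like cells (162 CPM), Cdon, Gli3 and Hhip in mesenchyme-like cells, and Hhip is near 0 in surface epithelium-like cells where Gli1 is not.

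The response genes were found together in single cells of the mesenchyme. In the 631 mesenchyme-like cells with a Gli1 UMI, Ptch1 was at 244 CPM, against 128 CPM in the other 7221, and Hhip at 76.0 against 26.6 CPM. Both were higher in all 4 libraries. Cdon (89.8 against 143 CPM) and Gas1 (233 against 326 CPM) were lower in all 4. In the 80 surface epithelium-like cells with Gli1, Ptch1 was at 166 against 75.8 CPM, again higher in all 4 libraries, with Hhip at 1.01 against 1.38 CPM. Osteoblast-like cells with Gli1 (67 cells) held Ptch1 at 273 against 203 CPM and Hhip at 23.1 against 24.3 CPM. Gli1-positive mesenchyme-like cells were deeper, at a median of 7701 against 6489 UMIs, and these values are descriptions with no test. The 49 osteoblast-like cells with Ihh stood apart from these, with Ptch1 at 172 against 221 CPM and lower in all 4 libraries. Genes of osteoblast maturation did not go one way in them: Ifitm5 was at 1742 against 661 CPM and higher in all 4 libraries, Dmp1 at 17.7 against 76.8 CPM and lower in all 4, and Bglap (1.37 against 22.4 CPM) and Spp1 (668 against 1191 CPM) were higher in 1. The Ihh-positive cells were deeper, at a median of 14340 against 8888 UMIs.

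The response was also compared between mesenchyme-like cells with and without regional factors of the face. Foxd1, Foxf1 and Foxf2 are themselves listed as response genes of head mesenchyme in the wider pathway list used below. Their splits therefore do not place the response independently of the pathway. Mesenchyme-like cells with 2 or more UMIs of each of 19 factors were set against those with 0, in an edgeR fit per factor with the library as a term. Of 152 tests of the 9 genes, 50 (32.9%) passed an adjusted p of 0.05, 20 higher and 30 lower, against 8.81% of all tests (4.15% higher, 4.66% lower). Cdon was called in 13 of 19 splits (3 higher, 10 lower), Ptch1 in 11 (7 higher, 4 lower), Boc in 7, Gli2 in 7, Hhip in 6, Gli3 in 5, Gli1 in 1 and Smo in 0. Splits share cells and several factors overlap, so these counts are not independent.

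Cells with Foxd1, a forkhead factor of head mesenchyme and a member of the wider pathway list, had the most of the 9 genes called, at 6 (852 against 6228 cells, 10.3% of all genes called). Ptch1 was at 221, 232, 264 and 227 CPM with Foxd1 and at 107, 103, 134 and 118 CPM without. All libraries with Foxd1 lay above all without, and the difference was 1.04 ± 0.06 on the log2 scale (edgeR adjusted p 4.51e-06). Hhip was at 51.4, 46.0, 97.7 and 61.8 CPM against 26.0, 18.3, 24.5 and 24.8 CPM, again without overlap, a difference of 1.46 ± 0.16 (0.000209). Gli1 was at 17.1, 23.3, 24.8 and 17.1 CPM against 11.7, 9.85, 9.90 and 11.4 CPM, a difference of 0.97 ± 0.18 (0.00609), and this was the single split in which Gli1 was called. Gli2 rose by 0.45. Cdon went the other way, at 67.1, 82.6, 56.9 and 65.9 CPM against 149, 189, 145 and 154 CPM, a difference of -1.22 ± 0.07 (3.25e-06), as did Boc (-0.47) and Gas1 (-0.73). Foxd1-positive cells were deeper in each library, for example at 7598 against 6472 UMIs in control 1, and the part of depth was not tested.

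Higher Ptch1 with lower Cdon also marked the 161 Foxf1-positive cells (6.46% of all genes called). Ptch1 there was at 393, 429, 380.0 and 309 CPM, against 112, 117, 151 and 130.1 CPM, which was the largest Ptch1 difference of the 19 splits at 1.49 ± 0.13 on the log2 scale (edgeR adjusted p 1.75e-16). Cdon was at 38.6, 84.3, 20.3 and 15.2 CPM against 136, 171, 128 and 143 CPM, a difference of -2.13 ± 0.22 (4.07e-13). Foxf2-positive cells (4.04% of genes called) differed the same way, with Ptch1 at 1.07 and Cdon at -1.81, and Tbx18-positive cells (5.43%) with Ptch1 at 0.68, Hhip at 1.22 and Cdon at -0.75. Boc was lower in the Foxf1 (-1.10), Foxf2 (-0.95) and Dlx5 splits (-0.79; 6.8% of genes called). The last also had Hhip higher by 1.21 and Cdon lower (-1.26), with Hhip lost without control replicate 2 (adjusted p 0.0718). Ptch1 was also higher with Lhx8 (0.75; 7.83% of genes called), Shox2 (0.60; 6.65%) and Msx1 (0.44; 9.7%), the last lost without control replicate 1 (adjusted p 0.0522).

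Lower Ptch1 marked Zic1-positive cells (298 cells, 12.1% of genes called), at 53.3, 64.5, 61.2 and 36.04 CPM against 136, 138, 168 and 143 CPM. The ranges were far apart, and the difference was -1.36 ± 0.15 on the log2 scale (edgeR adjusted p 0.000289). Zic1-positive cells were deeper in each library, for example at 9426 against 6482 UMIs in control 1, and the part of depth was not tested. Cdon was higher there by 0.81, a call lost without mutant replicate 2 (adjusted p 0.0788). Ptch1 was also lower with Foxl2 (-0.87; 2.7% of genes called), Tfap2b (-0.62; 9.18%) and Osr2 (-0.40; 10.6%), the last lost without mutant replicate 2 (0.0639). Hhip was lower with Tfap2b (-1.22 ± 0.12, adjusted p 3.73e-05), at a mean of 15.3 against 35.0 CPM. Cdon was higher with Osr2 (0.58) and Osr1 (0.51; 9.56% of genes called) and lower with Pou3f4 (-1.60; 19.9%) and Pax9 (-1.02; 12.6%). Of the 11 splits in which Ptch1 was called, Cdon was called too in 6, in the opposite direction each time: Foxf1, Foxf2, Foxd1 and Tbx18 with Ptch1 higher, Zic1 and Osr2 with Ptch1 lower. Hhip and Ptch1 were called together in 5 splits, in the same direction each time: Foxd1, Tbx18 and Shox2 higher, Foxl2 and Tfap2b lower. Without at least 1 of the libraries the Hhip call was lost with Shox2 (adjusted p up to 0.170) and Foxl2 (up to 0.115).

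**Figure D3:**
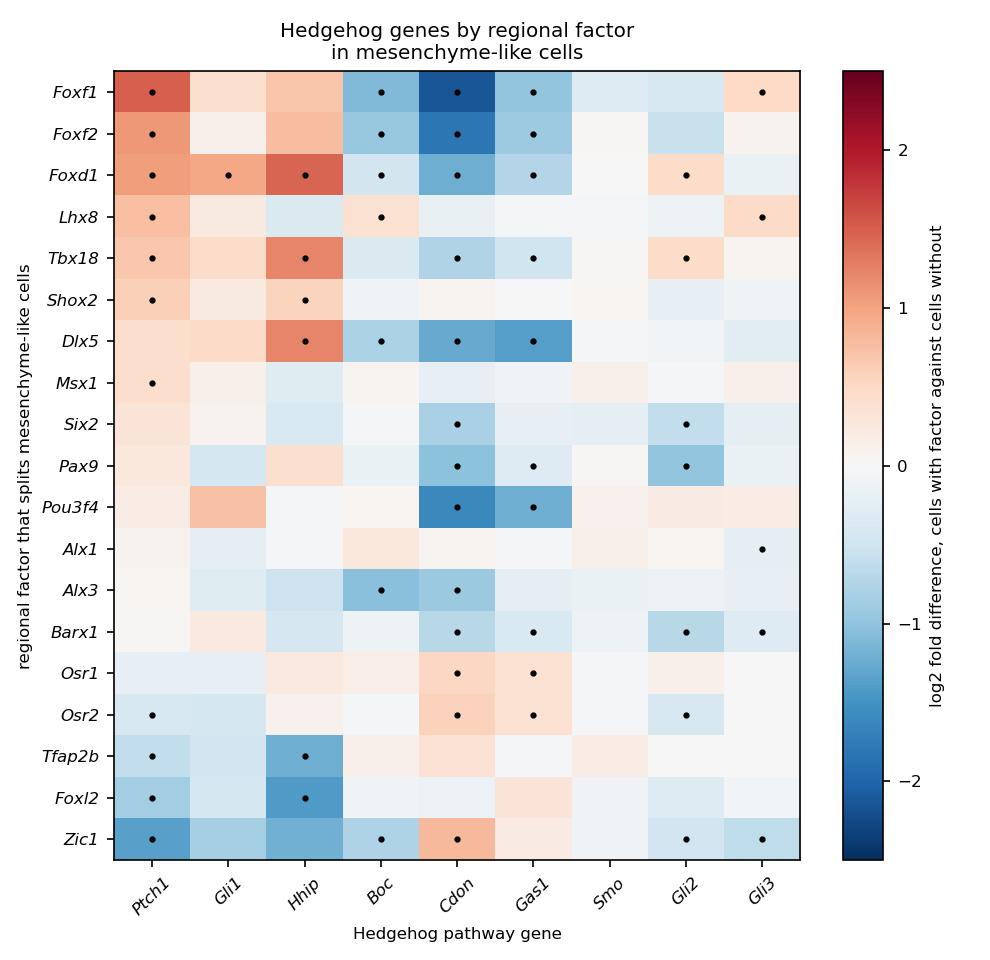
Log2 difference (colour) of 9 Hedgehog pathway genes (columns) between mesenchyme-like cells with at least 2 UMIs of a regional factor and cells with 0 (rows, ordered by Ptch1), where a dot marks an edgeR adjusted p below 0.05. Ptch1 runs from 1.49 with Foxf1 to -1.36 with Zic1, Cdon runs mostly the other way, and Smo has no dot.

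The wider pathway was read from a list of 37 further genes in 4 groups. In surface epithelium-like against mesenchyme-like cells, 1 of 6 tested ligand and release genes was higher and 2 lower, 2 of 4 reception genes were higher and 2 lower, 7 of 14 relay genes were lower and none higher, and 2 of 8 response genes were higher and 5 lower, where 53.8% of all genes were called and 28.3% were lower. Of 14 relay genes, 2 were lower in osteoblast-like cells (16.3% of all genes lower), 1 in chondrocyte-like cells (8.46%) and 0 in glia-like cells (15%). Among the genes with the widest range between types, Gpc3, a cell-surface proteoglycan that competes for Hedgehog ligands, was at 678 ± 66.5 CPM (SD, n = 4) in mesenchyme-like and 25.4 CPM in macrophage-like cells. Scube3, of a family of secreted proteins that help to release Hedgehog ligands, was highest in chondrocyte-like cells (45.3 CPM) and Scube1 in glia-like cells (41.9 CPM). Disp1, which exports the ligand, was highest in mesenchyme-like cells (50.6 CPM). Ccnd2, a cell cycle regulator, was highest in surface epithelium-like cells (484 CPM) and Foxd1 in mesenchyme-like cells (67.6 CPM).

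The genes whose levels followed a member most closely over 9 types and 4 libraries (36 points, Pearson r of log2(CPM + 10), among 10172 genes) were listed as a description, since points of 1 library share its depth. Ptch1 was followed by Fto (0.88), Rabgap1l (0.88) and Gfra4 (0.86), and Hhip by Cpne5 (0.90), Inhba (0.90) and Mab21l2 (0.88). Gli1 was followed by A630012P03Rik (0.88), Irx5 (0.87) and Gm14582 (0.87), and Shh by 2310030G06Rik (0.73), Ckmt1 (0.73) and Rcor1 (0.72).

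The comparison of genotypes asked whether ligand source or response differed in the mutant libraries. The protocol names 2 sequencing providers but not the provider of each library. Whether provider and genotype coincide is therefore not known, and the part of provider was not tested. No member passed an adjusted p of 0.05 with edgeR, over all cells or in any of the 9 types. Over all cells 0 of 18080 genes passed (0%), 883 had an unadjusted p below 0.05, among them 1 of the 9 members, and DESeq2 called 30. Fewer cells of a type and less RNA per cell cannot be told apart in that sum. In mesenchyme-like cells 0 of 15517 genes passed (0%, with 1242 below an unadjusted p of 0.05 and 51 called by DESeq2) and in surface epithelium-like cells 2 of 11530 (0.0173%). In the other 7 types 2 to 8 of the 9 members passed the filter on low counts, and the share of all genes called was 1.97% in mural-like, 0.0849% in macrophage-like, 0.056% in endothelial-like cells and 0% in the others. These shares also moved when a library was left out, to as many as 188 genes called in endothelial-like and 163 in macrophage-like cells. Leaving out control replicate 1 changed this, with Cdon called over all cells (-0.50, adjusted p 0.0456) and in mesenchyme-like cells (-0.42, 0.0430) and Ptch1 in surface epithelium-like cells (0.79, 0.00484). The whole table moved with it, to 410, 752 and 639 genes called in the same 3 fits.

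Over all cells Shh stood at 0.594, 0.759, 0.893 and 1.19 CPM, both mutant libraries above both controls, with a log2 change of 0.60 ± 0.37. In surface epithelium-like cells it was at 4.23, 1.59, 8.54 and 11.6 CPM, again without overlap, a log2 change of 1.54 ± 0.47 (SE, n = 2 against 2). In these cells Shh reached the filter on low counts through the mutant libraries alone, so its test is not given as support. Over all epithelial cells, Gstm1/Olfm5 epithelium included, Shh was at 2.49, 8.97, 4.74 and 5.97 CPM, where the groups overlapped and control 2 was highest. The UMIs behind the surface epithelium-like values were few, at 17, 2, 23 and 23 in 11, 2, 6 and 13 cells. The share of surface epithelium-like cells with a Shh UMI did not follow the level. After each cell was thinned to 3000 UMIs it averaged 2.35% in controls and 1.94% in mutants, a difference of -0.405 percentage points (exact two-sided permutation p 1.0, smallest possible 0.33), and unthinned it was 3.36% against 4.51%. No order is read from it, and thinning left out 268, 172, 211 and 543 cells of all types.

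Receptor and co-receptor genes did not pass the test either. Ptch1 in mesenchyme-like cells stood at 128 and 124 against 163 and 137 CPM, controls first, a log2 change of 0.20 ± 0.12 (edgeR adjusted p 0.705). Cdon in surface epithelium-like cells stood at 73.4 and 64.5 against 46.4 and 49.0 CPM, and Boc at 66.7 and 48.6 against 36.4 and 48.0 CPM. Both were without overlap, with log2 changes of -0.55 ± 0.15 (unadjusted p 0.0068, adjusted 0.60) and -0.50 ± 0.21 (0.0427 and 0.775). In mesenchyme-like cells Boc was at 119.8 and 117 against 127 and 140.1 CPM, a change of 0.13. The difference between both Boc changes was -0.63 ± 0.20 with an edgeR adjusted p of 0.626, and -0.79 with 0.0149 without control replicate 2. No gene of 15563 passed that test of the difference (0%).

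Smo had the smallest unadjusted p of the 9 members over all cells. There it stood at 58.4, 57.8, 70.5 and 73.5 CPM, without overlap, a log2 change of 0.27 ± 0.08 (edgeR unadjusted p 0.0139, adjusted p 0.909). In mesenchyme-like cells its 66.0 and 62.6 CPM in controls lay below the 81.1 and 86.1 CPM of mutants, a change of 0.34 ± 0.09 (0.00676 and 0.449). Both mutant libraries were above both controls in 6 of the 9 types, which share their libraries (mesenchyme-like, 25.7% of all genes so; chondrocyte-like, 18.4%; endothelial-like, 18.1%; glia-like, 22.3%; macrophage-like, 16.8%; mural-like, 22.5%), and below both in surface epithelium-like cells. Without overlap and higher in the mutants were 5 of the 9 members over all cells, Shh, Ptch1, Smo, Hhip and Boc (24.9% of all genes were so), and 4 of 8 in mesenchyme-like cells, Ptch1, Smo, Hhip and Boc (25.7%). In surface epithelium-like cells 2 of 8 were higher, Shh and Gli2 (18.2%), and 3 lower, Smo, Boc and Cdon (20.2%). Shh was among these 8 through the mutant libraries alone.

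The response genes did not separate the genotypes by the test. Gli1 had a log2 change of 0.03 in mesenchyme-like cells and was at 11.7 and 11.9 against 13.4 and 4.54 CPM in surface epithelium-like cells, where mutant 2 was the lowest and mutant 1 the highest. The thinned share of mesenchyme-like cells with a Gli1 UMI averaged 3.65% in controls and 3.50% in mutants, with 0% in macrophage-like cells. Hhip in mesenchyme-like cells was at 29.4 and 24.8 against 38.6 and 30.2 CPM, a log2 change of 0.30 ± 0.15 (edgeR adjusted p 0.66). The log2 changes of Gli2 and Gli3 there were 0.13 and 0.07.

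**Figure D4:**
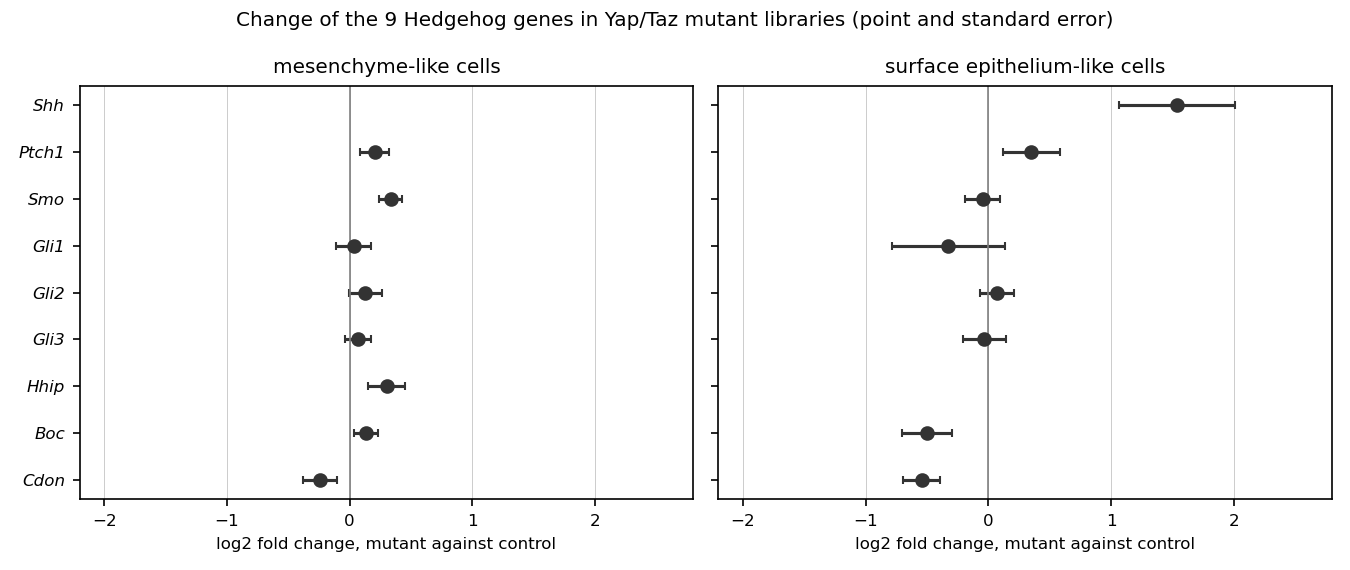
Log2 change (horizontal axis, mutant against control, point and standard error) of the 9 genes (vertical axis) in mesenchyme-like and surface epithelium-like cells, from the edgeR fits. None passed an adjusted p of 0.05, and genes below the filter on low counts have no point. Shh in surface epithelium-like cells is at 1.54 ± 0.47 and reached that filter through the mutant libraries alone.

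Of the 37 further genes, Foxd1 and Ccnd1 passed a genotype test with enough counts in both groups to be tested. In mural-like cells, in which 151 of 7653 genes were called (1.97%), Foxd1 stood at 86.6 and 118 CPM in control and at 19.4 and 29.3 CPM in mutant libraries, a change of -2.06 ± 0.32 on the log2 scale (edgeR adjusted p 0.000433, DESeq2 adjusted p 0.0544). Ccnd1, a cyclin that drives cell cycle entry, was at 145 and 150.1 against 71.8 and 84.5 CPM there (-0.95 ± 0.23, edgeR adjusted p 0.0302), a call lost with DESeq2 (0.878), in stricter cells (0.0653), with doublets removed (0.131), with the stricter assignment (0.153) and without any 1 library (0.0504 to 0.203). The mural marker list was at a summed 2448, 2249, 1870 and 1879 CPM in these cells and the mesenchyme list at 3146, 2781, 3163 and 2748 CPM. The glia list was at 83.9, 192, 11.6 and 53.6 CPM, lower in both mutants, and 1 glia marker and 1 of 8 mural markers were called lower. The part of other cells in these changes was not tested. Ptch1 in mural-like cells was at 41.3 and 57.1 against 79.6 and 58.5 CPM and did not pass. In macrophage-like cells Gpc3 was at 50.9 CPM pooled over the controls, from 77 UMIs, and 0 in the mutants, at least 19.5-fold lower. It reached the filter on low counts through the controls alone, so its test is not given as support. With doublets removed 0 genes were called in these cells, against 6. The summed mesenchyme list in the same cells was at 131, 258, 9.38 and 47.2 CPM, and its part in the Gpc3 result was not tested.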

How the data were processed

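Single-cell RNA libraries of whole noses were analysed, 2 control and 2 mutant by title. The authors deposited raw UMI counts per gene and barcode, made with Cell Ranger 8.0.1 per the file headers. The submitters' processing notes name Cell Ranger 4, Seurat 4.3.0 and mm10, and this disagreement was not settled. Filters on cells were those given above. Totals per library were 19767873 to 35331450 UMIs, and counts of few UMIs limit the ligands most.

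Types were assigned per cell by counting detected markers of lists of up to 8 genes: at least 3 markers and 2 more than any other type, or at least 4 for mesenchyme, with 2 of 6 shared epithelial markers for epithelia. Gstm1/Olfm5 epithelium is the remainder: cells that met no other type and held at least 3 shared epithelial markers. Its leading genes include some that lead olfactory (Gstm1, Sult1e1) and respiratory epithelium-like cells (Olfm5, Tst), types too small to test, so it may mix epithelia. This rule was set after the data were seen. It left 18.1%, 19.3%, 16.6% and 23.0% of cells without a type. The members and lists were chosen with earlier results of these data known. Doublets were kept, and removed by Scrublet score (scanpy 1.11.5, 0.8% per 1000 barcodes) as an alternative.

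Counts were summed per library and type and given to edgeR 4.0.16 (TMM, filterByExpr, the quasi-likelihood test, Benjamini-Hochberg over all genes tested, threshold 0.05) under R 4.3.3. Standard errors were derived from each log2 change and its F statistic. Alternatives were DESeq2 1.42.0 and its size factors, no filter, stricter cells (1000 genes, 5% mitochondrial), a stricter assignment, a replicate block and each library left out in turn. Omissions in the factor splits were added after seeing the data. Shares carry exact 95% intervals (scipy 1.17.1). Named genes were the 9 members, Dhh, Ihh, Gas1, list genes that passed a genotype test, up to 3 per group with the widest range between types and the 3 most like Shh, Ptch1, Gli1 and Hhip. Some results are not reported here. On simulated counts the test recovered 58% of 2-fold and 95% of 4-fold changes over all cells. It recovered 77% and 95% in mesenchyme-like and 61% and 88% in surface epithelium-like cells. The simulation gave all genes a common dispersion and changed randomly picked genes. These shares therefore do not give the recovery for genes as sparse as Shh or Gli1, or for genes that vary more.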

Additional observations from a re-analysis of the deposited data

Results flagged for a closer look

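In macrophage-like cells Ptch1 was lower in both mutant libraries, at 53.2, 16.5, 7.51 and 14.6 CPM in the order above (log2 change -1.64), whereas in mesenchyme-like cells it was higher in both (0.20). The groups moved in opposite directions in these types, and the difference between the changes was not tested. The share of macrophage-like cells with a Ptch1 UMI averaged 20.5% in controls and 9.19% in mutants, lower in both mutants. After thinning it averaged 5.33% and 4.39%, and the groups overlapped. In these cells 16.8% of all genes were higher in both mutants, and the share lower in both is not reported here. Macrophage-like cells held 69 Ptch1 UMIs in 42 cells, and their summed mesenchyme marker list was at 131, 258, 9.38 and 47.2 CPM, whose part in the result was not tested.

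In osteoblast-like cells Hhip was lower in both mutant libraries, at 28.1, 26.1, 24.0 and 17.0 CPM (log2 change -0.49), and in mesenchyme-like cells higher in both (0.30). This difference was not tested either, and the share of all genes lower in both mutants is not reported here for osteoblast-like cells.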

How the results depend on the processing

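Among the counts of members called and other main values, 94 results under alternatives other than leaving out a library were rated unchanged, and 5 were not. Counts were compared as counts, so this does not show that each gene kept its direction or call. Among values of single genes under these alternatives, 317 were rated the same, 3 stronger and 6 weaker. Without the filter on low counts 1 member was called in macrophage-like cells (Ptch1, -1.66, adjusted p 0.0445) and 1 in Gstm1/Olfm5 epithelium (Shh, -5.36, 0.00905). Without thinning, the mutant-minus-control difference in the share of cells with a UMI reversed for Shh in surface epithelium-like cells (1.15 percentage points), Gli1 in mesenchyme-like cells (0.295) and Gli1 in surface epithelium-like cells (-1.08). The cause was not tested.

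Leaving out each library in turn, the number of members called ran from 0 to 1 over all cells, in mesenchyme-, surface epithelium-, endothelial- and macrophage-like cells and in the difference between epithelial and mesenchymal changes, from 1 to 3 in chondrocyte-like against mesenchyme-like cells, and from 12 to 25 over the epithelial splits. Over all cells the log2 change ran from -0.0581 to 0.16 for Gli1, -0.0446 to 0.25 for Gli2, -0.0555 to 0.13 for Gli3 and -0.50 to 0.0677 for Cdon. In mesenchyme-like cells it ran from -0.0207 to 0.0811 for Gli1, -0.0404 to 0.32 for Gli2 and -0.0293 to 0.16 for Gli3. In surface epithelium-like cells it ran from -0.11 to 0.00224 for Smo, -1.35 to 0.19 for Gli1 and -0.21 to 0.26 for Gli3. Against mesenchyme-like cells, Smo in chondrocyte-like cells ran from -0.0681 to 0.0584 and Gli1 in surface epithelium-like cells from -0.35 to 0.0274. The difference of changes ran from -0.22 to 0.87 for Shh, -0.10 to 0.60 for Ptch1, -1.33 to 0.12 for Gli1, -0.29 to 0.18 for Gli2, -0.34 to 0.25 for Gli3, -1.04 to 1.09 for Hhip and -0.57 to 0.0112 for Cdon.

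The replicate numbers did not pair the libraries, since deviations of same-numbered libraries correlated between -0.0816 and 0.0809. With the replicate block, 0 members were called, and 0 genes over all cells, 43 in mesenchyme-like, 7 in surface epithelium-like and 276 in mural-like cells. Counts of all genes called moved by over 1.5 times. Over all cells they went from 0 to 10 with no filter, 30 with DESeq2 and 0 to 410 with a library left out. In mesenchyme-like cells they went from 0 to 565, 51 and 7 to 752 under the same settings, and in surface epithelium-like cells from 2 to 264, 13 and 0 to 639. In mural-like cells 151 became 244, 20 and 65 to 279, with 59 in stricter cells, 52 with doublets removed and 71 with the stricter assignment. With a library left out, counts ran from 11 to 176 in chondrocyte-like cells (0 with all libraries), 14 to 188 in endothelial-like (5), 0 to 134 in glia-like (0), 0 to 163 in macrophage-like (6) and 0 to 40 in osteoblast-like cells (0), and from 0 to 329 in Gstm1/Olfm5 epithelium (0). With no filter they were 36, 219, 45, 181, 55 and 101 in the same order, and with the replicate block 16, 143, 36, 116, 32 and 1.

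With 2 libraries per group, depth limits the ligands most: Shh rests on 94 UMIs.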
